A study of Mus musculus with 14 samples.

Results

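The genes described here act in G2 phase and mitosis, the end of the cell cycle in which duplicated chromosomes are condensed, attached to the spindle and shared between daughter cells. They were chosen by symbol from a list of 52, and each was found as 1 row among the 41934 genes measured in whole fetal mouse brain. Total RNA was sequenced from 14 male fetuses on a C57BL/6J background, from timed matings of Dio3+/- parents that gave littermates of both genotypes. At E13.5, an embryonic age in days, there were 4 Dio3+/+ and 2 Dio3-/- fetuses, and at E18.5 there were 3 Dio3+/+ and 5 Dio3-/- fetuses. The Dio3-/- fetuses carry point mutations that inactivate the type 3 deiodinase (DIO3), the enzyme that clears thyroid hormone, in every cell, and they still make Dio3 mRNA, so its level is no check of the genotype. No agent was given. The value used for each gene and age is the authors' mean normalized count, which averages all libraries of an age over both genotypes. These means hold no value of a single library, so no comparison of genotypes, no spread between fetuses and no p-value can be drawn from them. The authors' own comparison of genotypes was not used.

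Before division, many progenitor cells of the fetal brain round up at the ventricular surface, and their daughters either divide again or leave the cycle, for example as neurons. Entry into mitosis is driven by the kinase CDK1 with its B-type cyclins, and exit by the anaphase-promoting complex, which marks cyclins for destruction. Genes of this stage are transcribed mainly in G2. In resting cells the DREAM complex, built on the MuvB core, represses them, and in cycling cells MuvB with B-MYB and FOXM1 activates them. MuvB reaches their promoters through an element called the cell cycle genes homology region (CHR), which often lies downstream of CCAAT boxes bound by the factor NF-Y.

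Promoter sequences are shown for Cdc20, Bub1 and Top2a because their levels differed most between the ages among members with a listed promoter, a start near the 5′ end of the gene and a CHR match. Each runs from 150 bases before to 30 bases after the RefSeq transcript start on GRCm38.p6, 5′ to 3′ on the minus strand, where all of these genes lie. The windows are chr4:118437314-118437493 for Cdc20, chr2:127831830-127832009 for Bub1 and chr11:99024160-99024339 for Top2a. Capitals mark matches to a CHR (TTTGAA or TTTAAA or TTCGAA) or to CCAAT, each read on either strand, so that TTCAAA and ATTGG are matches on the other strand.
Cdc20: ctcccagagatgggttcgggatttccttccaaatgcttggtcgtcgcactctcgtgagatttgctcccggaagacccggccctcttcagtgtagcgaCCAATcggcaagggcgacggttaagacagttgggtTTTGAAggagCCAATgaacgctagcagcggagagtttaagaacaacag
Bub1: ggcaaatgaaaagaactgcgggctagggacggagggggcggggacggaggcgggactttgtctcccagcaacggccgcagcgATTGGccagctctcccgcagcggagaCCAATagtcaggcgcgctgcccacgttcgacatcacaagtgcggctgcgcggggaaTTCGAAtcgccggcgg
Top2a: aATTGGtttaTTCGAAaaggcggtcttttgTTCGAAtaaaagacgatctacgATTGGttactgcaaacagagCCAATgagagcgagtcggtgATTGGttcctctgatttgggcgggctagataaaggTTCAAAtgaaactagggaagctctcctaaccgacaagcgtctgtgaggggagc

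Positions are counted from the transcript start, with 1 for its first base and negative numbers before it. In Cdc20 a TTTGAA began at position -18, between CCAAT matches at -53 and -8. In Bub1 a TTCGAA began at position 15, with CCAAT matches at -68 and -42. Top2a held CHR matches at -140, -120 and -23 in the printed stretch, the last of them after a run of CCAAT matches at -149, -98, -78 and -58.

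Of the 52 members, 46 had an entry in the RefSeq promoter table, which spans 250 bases before to 50 bases after a start. Tpx2, Smc4, Aurkb, Cdc25c, Dlgap5 and Cdca2 had none. Each start lay within 72 bases of a GENCODE transcript start, and 4 of the 46 lay more than 1000 bases inside the gene, among them that of Kif2c. A CHR match was found in 39 of the 46 promoters, a share of 84.8%, against 29.0% of 27025 promoters of the same length. For TTTGAA alone the shares were 69.6% and 18.1%, and for CCAAT 76.1% and 37.9%. Related genes outside the members had similar shares in part. Promoters of other mitosis genes held a CHR match in 72.4% and CCAAT in 69.0%. In promoters of S phase genes the shares were 33.3% and 66.7%, so CCAAT was not particular to the members. Both kinds of match stood together in 32 member promoters (69.6%) and in 11.5% of all.

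The 58 CHR matches had a median position of -17.5 with quartiles of -115.5 and 14.8, and 21 of them began more than 50 bases from the start. Between 50 bases before and 50 bases after it, a window chosen after the positions were seen, a CHR match was present in 30 of the 46 members (65.2%) and in 8.6% of all promoters. In the same window it was present in 72.4% of promoters of other mitosis genes and in 11.1% of those of S phase genes. CCAAT matches had a median position of -65 over 95 matches. In 25 members a CCAAT match preceded a CHR match near the start, the nearest by a median of 33 bases from first base to first base. The share of all promoters with this order was not computed, so the order is not shown to be particular to the members. The E2F motif of S phase promoters (TTTNNCGC, where N is C or G, on either strand) was found in 2 of the 46 promoters (4.35%), in 2.32% of all promoters and in 7 of 18 promoters of S phase genes (38.9%). A match is a string of letters, and binding was not measured.

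**Figure D1:**
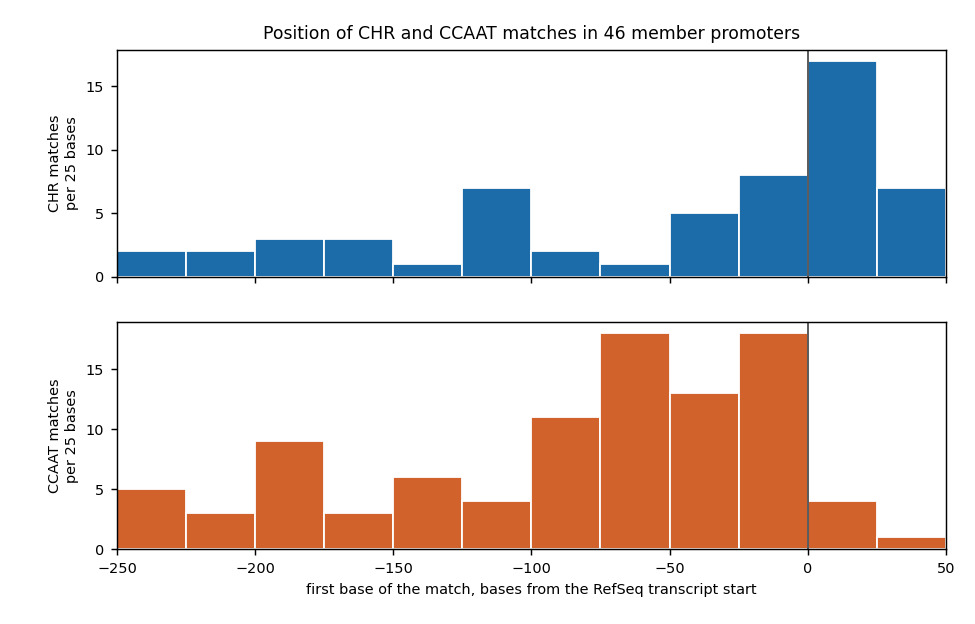
Number of CHR matches (upper panel) and CCAAT matches (lower panel) per 25 bases in the 46 member promoters, by the distance in bases of the first base of the match from the RefSeq transcript start (vertical line). CHR matches are densest just after the start, and CCAAT matches in the 100 bases before it.

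To set the ages beside each other, the mean normalized counts of each age were divided by their sum over protein-coding genes, and are given below in CPM, normalized counts scaled so that protein-coding genes sum to 1000000. The ages were normalized separately by the authors, and 2 of 6 libraries at E13.5 but 5 of 8 at E18.5 were Dio3-/-, so that age and genotype mix cannot be told apart in these values. The libraries came from 2 sequencing batches made with different kits, and how the batches fall among the ages is not given in the sources used here, so batch cannot be told apart from age either. In whole brain, fewer cells of a kind and less RNA per cell also cannot be told apart.

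As a group the G2 and mitosis genes were lower at E18.5 than at E13.5. The median log2 ratio of E18.5 to E13.5 was -1.80, a 3.49-fold lower level at the median, and the quartiles were -1.91 and -1.41. Over 15146 protein-coding genes whose deposited mean reached 10 at 1 or both ages, the median was -0.08, with quartiles of -0.46 and 0.44. By more than 2-fold, 43 of the 52 members were lower at E18.5, against 7.71% of all those genes. By more than 4-fold, 9 members were lower, against 1.67%: Cdc20, Dlgap5, Bub1, Top2a, Kif2c, Gtse1, Cdca2, Ube2c and Cdca3. With log2 ratios of -2.01 and -1.98, Cdca3 and Hmgb2 stood on either side of the 4-fold line, and the number past it ran from 2 to 25 over the other scalings tried. None was higher by more than 2-fold, against 1950 of the 15146 genes.

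Tubb4b, at -0.0026, was lower under 2 of the 7 scalings tried and higher under 5, with a highest value of 0.16, whereas the remaining 51 members were lower under each of them. The choice of scaling moved the median of all genes between -0.27, for the values as deposited, and 0.08, for a scaling to commonly used reference genes. The members' median stood 1.72 below it, a distance that no scaling can change because each one shifts all genes alike. Summed over the members, the level was 5964 CPM at E13.5 and 2820.3 at E18.5. Without 10 members that also have well known roles outside mitosis (Hmgb2, Tmpo, Anp32e, Tubb4b, Rangap1, Lbr, Ckap5, Ctcf, Cbx5 and G2e3), the sums were 3052 and 971 CPM. Of the 42 that remained, 40 were lower by more than 2-fold, all except Hjurp and Gas2l3, and their median was -1.85. Of the 10, 3 were lower by more than 2-fold, with a median of -0.57. These 10 were listed with earlier results of these data known, so the contrast is a description only.

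**Figure D2:**
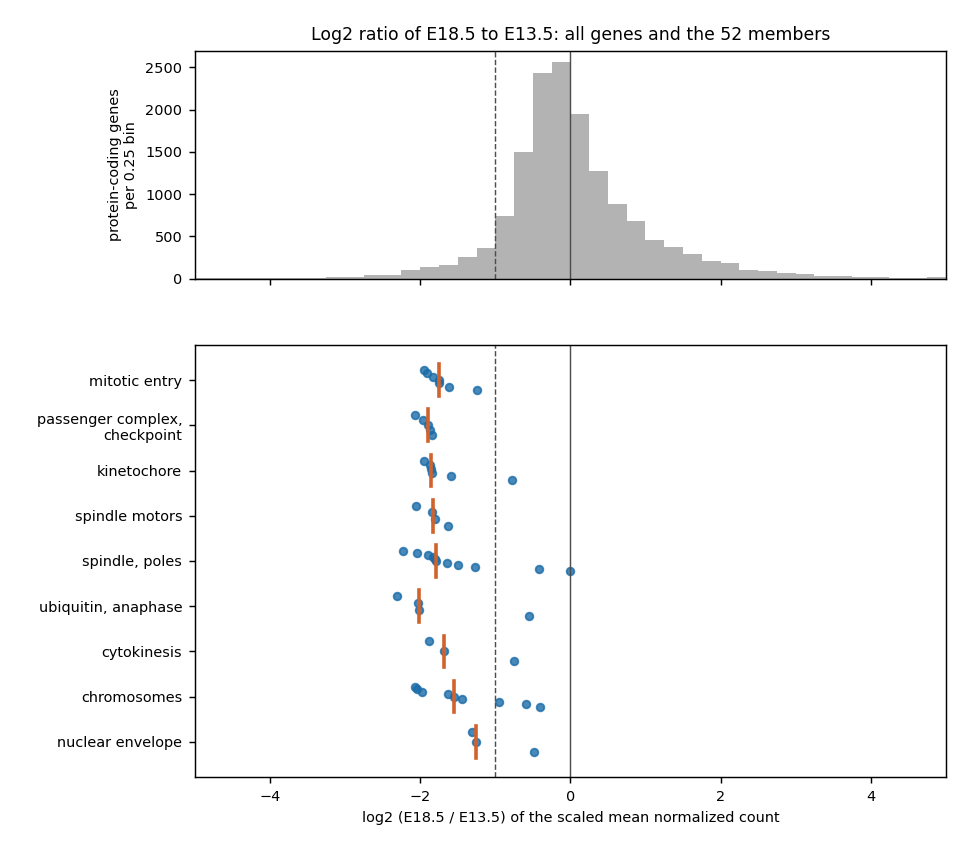
Log2 ratio of E18.5 to E13.5 of the scaled mean normalized count (horizontal axis) for 15146 protein-coding genes (upper panel, genes per bin of 0.25, with values beyond the axis counted in the end bins) and for the 52 members by role (lower panel, 1 point a gene, vertical bar at the role's median). Solid and dashed lines mark no difference and a 2-fold lower level; 43 members lie to the left of the dashed line.

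The genes that start mitosis were lower throughout, 7 of 7 by more than 2-fold with a median of -1.75. The kinase Cdk1 stood at 44.6 CPM at E13.5 and 13.3 at E18.5, a log2 ratio of -1.75. Its partner Ccnb2, a B-type cyclin, was close to it at 36.3 and 10.2 CPM, a log2 ratio of -1.83. Cdc25c, the phosphatase that removes the inhibitory marks from CDK1, stood at 16.1 and 4.19 CPM, a log2 ratio of -1.94. Over 12.7% of its exon length Cdc25c overlaps Gm3550 on the other strand, where reads counted without strand can go uncounted. The centrosomal kinase Aurka, which matures the spindle poles, was at 26.7 and 7.14 CPM, a log2 ratio of -1.90. Nek2, a kinase that separates the centrosomes, was at 2.61 and 0.847 CPM, a log2 ratio of -1.62. Its counting error alone gave a 95% interval of -1.89 to -1.36, the widest of the members. The small CDK-binding proteins Cks1b and Cks2 were at 28.8 and 12.2 CPM and at 7.47 and 2.22 CPM, with log2 ratios of -1.24 and -1.75. Cks1b was the member just past the 2-fold line. Of the possible 75-base reads of Cks2, 26.9% also occur in transcripts of other genes, where reads can go uncounted, and of Cks1b none do.

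Genes of the spindle checkpoint and the chromosomal passenger complex, which hold anaphase until every chromosome is attached and correct wrong attachments, had the narrowest range of any role with at least 5 genes. All 5 lay between -2.07 and -1.85, with a median of -1.90. The checkpoint kinase Bub1 stood at 48.4 CPM at E13.5 and 11.5 at E18.5. The kinase Ttk, also called MPS1, stood at 24.3 CPM at E13.5 and 6.76 at E18.5. In the passenger complex, the kinase Aurkb was at 34.8 and 9.32 CPM, a log2 ratio of -1.90. Its partners were nearby, Birc5 (survivin) at -1.96 and Cdca8 (borealin) at -1.86.

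At the centromere and outer kinetochore, the sites where microtubules grip a chromosome, 5 of 6 members were lower by more than 2-fold. Cenpa, the histone H3 variant that marks the centromere, stood at 46.9 and 12.1 CPM, a log2 ratio of -1.95. Hjurp, the chaperone that places CENP-A, departed from it at 239 and 139 CPM, a log2 ratio of -0.78. The microtubule-binding subunits Ndc80 and Nuf2 were at 20.5 and 5.66 CPM and at 31.0 and 10.2 CPM, with log2 ratios of -1.86 and -1.60. The kinetochore motor Cenpe and the large coiled-coil protein Cenpf gave -1.87 and -1.84.

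All 4 spindle motors were lower by more than 2-fold. Kif2c (MCAK), which shortens microtubules at the kinetochore, had the largest difference, at 33.0 and 7.96 CPM, a log2 ratio of -2.05. Kif11 (Eg5), the kinesin that pushes the poles apart, was at 31.8 and 9.13 CPM, a log2 ratio of -1.80. Kif23, a kinesin of the central spindle, gave -1.85, and Kif20b, which also serves cytokinesis, gave -1.63.

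Among 11 genes of spindle microtubules and poles, 9 were lower by more than 2-fold and the remaining pair, Ckap5 and Tubb4b, stood near the bulk of all genes. Dlgap5 (HURP), which stabilises the fibres at the chromosomes, was at 31.6 and 6.73 CPM, a log2 ratio of -2.23. Tpx2, the activator of Aurora A on the spindle, was at 114 and 32.6 CPM, a log2 ratio of -1.81. The others from Gtse1 and Psrc1 through Hmmr, Tacc3, Nusap1 and Ckap2 to Ckap2l lay between -2.05 and -1.27. Tacc3 binds Ckap5 (chTOG) on spindle fibres, and Tacc3 gave -1.79 where Ckap5, a microtubule polymerase that also serves interphase arrays, was at 465 and 347 CPM, a log2 ratio of -0.42. The beta-tubulin Tubb4b was at 95.6 CPM at E13.5 and 95.5 at E18.5. Tubb4b shares 29.9% of its possible 75-base reads with transcripts of other genes, the largest share among the members.

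The ubiquitin pathway of anaphase held the member with the largest difference. Cdc20, which activates the anaphase-promoting complex once the checkpoint is met, stood at 47.3 CPM at E13.5 and 9.58 at E18.5, a log2 ratio of -2.30. The conjugating enzyme Ube2c, which works with that complex, was at 62.0 and 15.2 CPM, a log2 ratio of -2.03. Over 22.8% of its exon length Ube2c overlaps Tnnc2 on the other strand, where reads counted without strand cannot be assigned. Cdca3 (TOME-1, trigger of mitotic entry) gave -2.01. G2e3, a ubiquitin ligase named for its expression in G2, was at 97.4 and 66.5 CPM, a log2 ratio of -0.55.

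In cytokinesis, the cut between daughter cells, Ect2 and Anln were lower by more than 2-fold and Gas2l3 was not. Ect2, the exchange factor that activates RhoA at the cleavage furrow, was at 70.0 and 18.9 CPM, a log2 ratio of -1.89. The furrow scaffold Anln was at 46.8 and 14.6 CPM, a log2 ratio of -1.68. Gas2l3, which links actin and microtubules, was at 26.2 and 15.5 CPM, a log2 ratio of -0.75.

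Chromosome structure genes summed to 2929.7 CPM at E13.5 and 1434 at E18.5, with 6 of 9 lower by more than 2-fold. Top2a, the enzyme that untangles sister chromatids, was at 389.7 and 93.0 CPM, a log2 ratio of -2.07. The proliferation marker Mki67, which coats mitotic chromosomes, was at 427 and 139 CPM, a log2 ratio of -1.62. The condensin subunits Smc4 and Ncapd2 gave -1.45 and -1.55, and Cdca2 (Repo-Man), which brings a phosphatase to anaphase chromosomes, gave -2.04. Hmgb2, a DNA-bending protein, was at 86.3 and 21.9 CPM, a log2 ratio of -1.98, with 17.5% of its possible 75-base reads shared with other genes. The remaining chromatin proteins of the role, Anp32e, Cbx5 and Ctcf, were nearer to 0 than Hmgb2. Anp32e, a chaperone of the histone variant H2A.Z, lay just short of the 2-fold line at -0.96. The heterochromatin protein Cbx5 (HP1 alpha) gave -0.59, and the insulator protein Ctcf gave -0.41.

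Of the genes of the nuclear envelope and pore, which is taken apart in mitosis, the lamina-associated Tmpo gave -1.31 and the lamin B receptor Lbr -1.25. Rangap1, which serves nuclear transport in interphase and sits at kinetochores in mitosis, was at 164 and 118 CPM, a log2 ratio of -0.48.

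**Figure D3:**
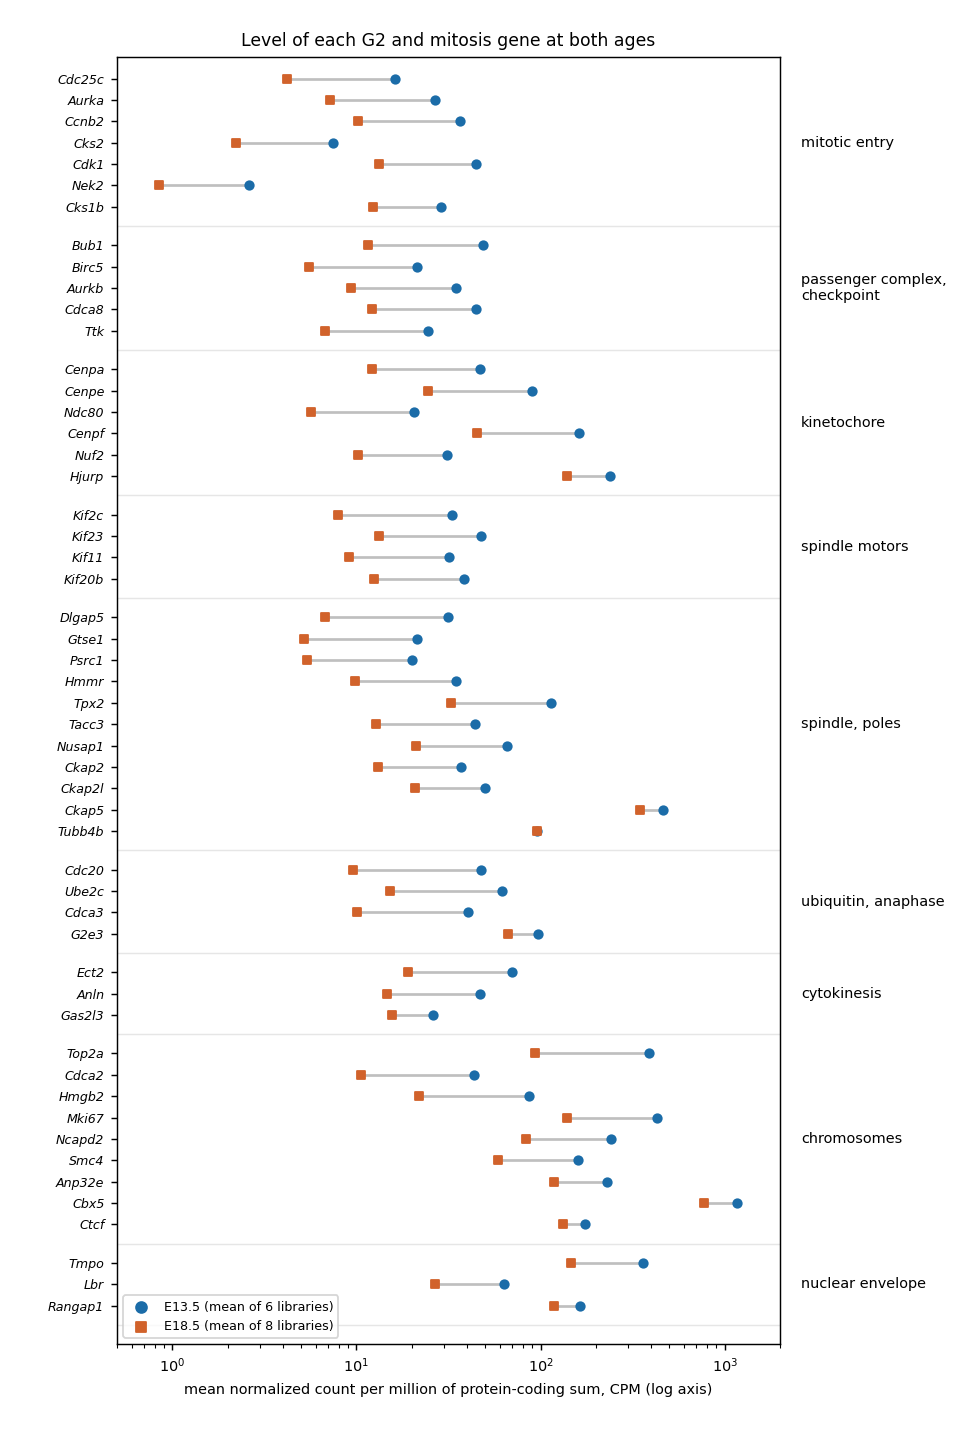
Level of each of the 52 members in CPM (horizontal log axis) at E13.5 (circles, mean of 6 libraries) and E18.5 (squares, mean of 8 libraries). Genes are grouped by role and ordered within it by the difference. The means carry no error bars because they hold no value of a single library. The square lies to the left of the circle in each gene, and in Tubb4b, where the 2 symbols coincide and the order turns with the scaling, the levels are 95.6 and 95.5 CPM.

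Per kilobase of annotated exon and within an age, levels can be compared between genes. At E13.5 the members ran from 15.2 to 3443 mean normalized counts per kilobase, with a median of 308, and at E18.5 from 4.37 to 2010.0 with a median of 78.0. The highest at E13.5 were Cbx5, Anp32e (1708), Ckap5 (1298), Tubb4b (1209) and Top2a (1142). At E18.5 Top2a (240.3) had left the highest 5, and they were Cbx5, Tubb4b (1064), Ckap5 (855), Anp32e (776) and Ctcf (631), none of which acts in mitosis alone. The lowest at E13.5 were Nek2, Ndc80 (83.5), Cdc25c (86.5), Gas2l3 (98.3) and Kif11 (113). The lowest 5 at E18.5 were Nek2, Cdc25c (19.8), Ndc80 (20.3), Dlgap5 (23.0) and Kif11 (28.5). The order of the 52 genes was much the same at both ages, with a Spearman rho of 0.97 over genes, which share their exon lengths and the libraries of an age.

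Against other genes the members ranked lower at E18.5 than at E13.5. Per kilobase, the median member stood at percentile 69.6 of 14743 protein-coding genes with a mean of at least 10 at E13.5, and at percentile 37.0 of 14859 such genes at E18.5. By mean normalized count, which also depends on gene length, the percentiles were 64.5 and 36.1, and among all genes with a mean of at least 1 they were 79.1 and 62.0, so that the part of the range at E18.5 depended on the genes compared.

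Genes that work together were set beside each other per kilobase, as subunits of a complex (Ndc80 with Nuf2, Aurkb with Birc5 and Cdca8, Smc4 with Ncapd2), as paralogs (Cks1b with Cks2) or as a chaperone and its client (Hjurp with Cenpa). Ndc80 stood at 0.647 times the level of Nuf2 at E13.5 and 0.540 times at E18.5. Aurkb was 1.87 and 1.95 times Birc5, and 1.38 and 1.34 times Cdca8. Smc4 was 0.796 and 0.853 times Ncapd2. Cks1b was 2.37 times Cks2 at E13.5 and 3.39 times at E18.5. Reads of Cks2 can go uncounted where it shares 26.9% of its possible 75-base reads, so its level beside Cks1b can be understated. The largest shift among these pairs was in the centromere pair, where Hjurp was 3.58 times Cenpa at E13.5 and 8.07 times at E18.5, a change of the ratio by 1.17 on the log2 scale.

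Other mitosis genes, a list of 34 that are not among the members, gave a like picture. Their median log2 ratio was -1.79, and 30 of 34 were lower by more than 2-fold. The largest difference was that of Espl1 (separase), the protease that cuts cohesin at anaphase, at -2.15, and the value farthest in the other direction was that of the kinetochore gene Zwint at 0.55. The list completes some complexes, and the following genes were named after their values were seen. Ccnb1, the main B-type cyclin of mitosis, gave -2.08 and the kinase Plk1 -2.10. Incenp, the scaffold of the passenger complex, gave -1.49, nearer to 0 than Aurkb at -1.90. Spc24 and Spc25, which join Ndc80 and Nuf2, gave -1.74 and -1.82. The condensin subunits Smc2, Ncaph and Ncapg gave -1.42, -1.82 and -1.99.

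The list of 24 S phase genes, which copy DNA, had a median of -1.50 with 21 genes lower by more than 2-fold, and ran from -2.14 for the helicase subunit Mcm2 to -0.52 for the clamp loader subunit Rfc2. The regulators of these programmes were less uniform. Of 13 transcription factors and DREAM components, 12 were below 0 and 5 were lower by more than 2-fold, with a median of -0.83. Mybl2, which encodes the activator B-MYB, was lowest at -2.27, and Rbl2, which encodes the pocket protein p130 of the repressing complex, was highest at 0.37. Also named after their values were seen, Foxm1 gave -1.70 and the MuvB core genes Lin9, Lin54, Lin52 and Lin37 gave -0.69, -0.32, -0.22 and -0.12. Of 10 genes linked to cell cycle exit, 7 were below 0 and 2 were lower by more than 2-fold, from -2.11 for the antiproliferative gene Btg2 to 1.52 for the CDK inhibitor p21, and the median was -0.34. The number below 0 was 11 or 12 in the DREAM list and 6 to 8 in the exit list over the 7 scalings. Over all protein-coding genes, 8415 of 15146 were below 0, which limits what these counts say about a list.

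**Figure D4:**
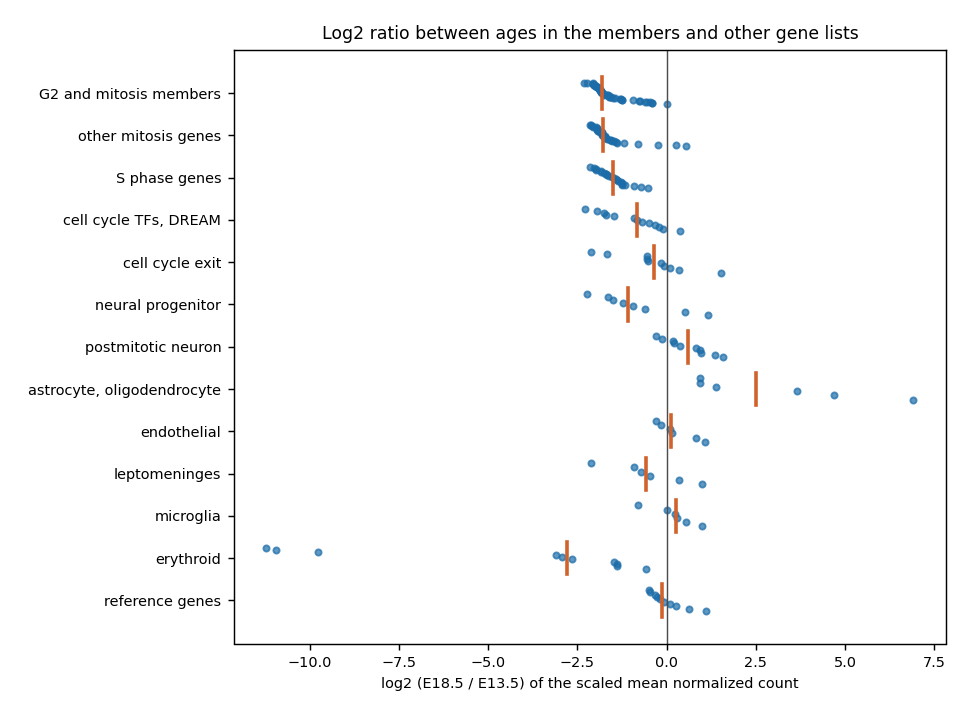
Log2 ratio of E18.5 to E13.5 of the scaled mean normalized count (horizontal axis) for each gene (points) of the 52 members and of 12 other lists, with the median of each list as a vertical bar. The members, the other mitosis genes and the S phase genes lie mostly between -2.3 and -1, and the erythroid list reaches -11.2.

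Markers of the cells that a whole brain holds moved between the ages as well, and their part in the values above was not tested. Beside the counts below, 8415 of the 15146 protein-coding genes were lower at E18.5. By more than 2-fold, 7.71% were lower and 1950 genes were higher. Of 8 neural progenitor markers, 6 were lower at E18.5 and 4 by more than 2-fold, from -2.24 for the intermediate filament Nes to 1.15 for the glutamate transporter Slc1a3, and their summed level was 2011 CPM at E13.5 and 1171 at E18.5. Of 10 postmitotic neuron markers, 8 were higher (7 to 9 over the scalings), 2 of them by more than 2-fold, with sums of 7949 and 10028 CPM. The values ran from -0.31 for Elavl4 to 1.58 for the synaptic gene Snap25. All 6 astrocyte and oligodendrocyte markers were higher, from 0.94 for Olig2 to 6.91 for Gfap, with sums of 117 and 418 CPM. Defining markers of brain were therefore present at both ages.

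Red cell precursors also divide, and their markers were lower at E18.5 too. All 10 erythroid markers were below 0 and 9 were lower by more than 2-fold, with sums of 1177 CPM at E13.5 and 57.2 at E18.5. The log2 ratios spanned -11.22 for the embryonic globin Hbb-y to -0.59 for the haem enzyme Alas2, and none was at 0 at both ages. Hbb-y alone made up most of the sum at E13.5, with a mean normalized count of 21476 out of 31077, and stood at 7.95 at E18.5. The sums therefore mostly follow this globin and are no count of red cell precursors. Leptomeninges markers gave sums of 853 and 514 CPM, with 4 of 6 lower and 1 by more than 2-fold, from -2.11 for Lum to 0.99 for Slc22a6. Those 4 of 6 stand beside 8415 of 15146 protein-coding genes that were lower. Endothelial markers gave 289 and 340.2 CPM, with 2 of 6 lower (1 to 4 over the scalings), from -0.30 for Cdh5 to 1.09 for Flt1. Microglia markers gave 51.7 and 63.6 CPM, with 2 of 6 lower (1 or 2 over the scalings), from -0.81 for Tmem119 to 1.00 for C1qa. The 10 reference genes had a median of -0.13, which reached 0.03 when they themselves set the scaling, and ran from -0.49 for Rplp0 to 1.10 for Hprt.

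Promoter letters and levels were also set side by side. The 30 members with a CHR match near the start had a median log2 ratio of -1.85, and 26 of them were lower by more than 2-fold. The 16 without a match near the start had a median of -1.57, and 11 of them were lower by more than 2-fold. The groups differed in make-up. A match near the start was present in 4 of 10 members with broad roles and in 26 of 36 others. Without a match, those not past 2-fold were Anp32e, Cbx5, G2e3, Ctcf and Tubb4b, all with broad roles. With a match, they were Hjurp, Gas2l3, Rangap1 and Ckap5, of which Rangap1 and Ckap5 have broad roles. The ranges overlapped, from -2.30 to -0.42 with a match near the start and from -2.05 to -0.0026 without. Kif2c and Tubb4b, the ends of the second range, both held a CHR match farther from the start. The listed start of Kif2c lies 3867 bases inside the gene. The difference between the groups was not tested.

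The depth behind these values was estimated from the steps that single counts leave in the lowest means. These are counts after the authors' batch adjustment, not the reads as sequenced. In units of M, 1000000 counts, adjusted counts on genes came to between 23.6 and 32.8 M per library at E13.5 and between 23.3 and 28.7 M at E18.5. At this depth the standard error that counting alone gives a member's log2 ratio was between 0.0051 for Cbx5 and 0.14 for Nek2. It leaves out the variation between fetuses, which these means do not show.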

How the data were processed

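Total RNA of 14 whole brains was depleted of ribosomal RNA and sequenced in 2 batches with different library kits. The authors trimmed reads with Cutadapt 3.1, aligned them to GRCm38 with STAR 2.5.3a, removed rRNA and tRNA with bedtools 2.26.0, assigned reads to GENCODE VM22 genes with HTSeq (union mode, strand ignored), adjusted the batches with ComBat-seq and normalized each age on its own with DESeq2 1.30.1. The adjustment can shift means, and its effect was not analysed here. The deposited mean normalized count is a signal, the average over the libraries of an age of counts divided by size factors. The tables also hold the authors' own comparison of genotypes (fold changes, standard errors, Wald statistics and p-values), which was not used. Which library belongs to which batch is not given in the sources used here.

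Means were scaled to the sum over protein-coding genes of the age, and levels were set between ages as log2 ratios with no pseudocount and no test. Protein-coding genes with a mean of at least 10 at either age formed the background. Exon lengths, overlaps and shared 75-base stretches came from GENCODE vM21, promoters from RefSeq on GRCm38.p6, the earliest listed where a gene had several. All members were described by role. Those singled out were the 5 highest and 5 lowest per kilobase at each age, the 5 with the largest and the 5 with the smallest difference, and subunits of shared complexes, and in other lists the extremes. The members, lists and tests were chosen with earlier results of these data known. The ratio was tested on simulated data. Python 3.11.15 with pandas 2.3.3 and numpy 2.4.6 was used.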

Additional observations from a re-analysis of the deposited data

How the results depend on the processing

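The members' median log2 ratio of -1.80 kept its direction under the 6 other scalings. It was -1.99 with the values as deposited and -1.64 with the reference genes, and moved by less than 0.1 under the others, without the members with broad roles and with rows of a shared symbol summed. The number of members lower at E18.5 by more than 2-fold, 43, was 43 or 44 under every scaling, 47 at 1.5-fold and 9 at 4-fold. The number past 4-fold was 25 as deposited and 2 with the median ratio set to 0 or with the reference genes. The percent of all genes lower by more than 2-fold, 7.71, ran from 5.90 to 10.8. The median percentile of the members at E13.5 was 69.6 per kilobase and 79.1 among all genes with a mean of at least 1, against 64.5, and at E18.5 it was 62.0 among the latter, against 36.1. The share of member promoters with a CHR match, 84.8%, was 69.6% for TTTGAA alone, 41.3% in the 150 bases before the start and, in a window added after seeing the data, 65.2% within 50 bases on either side of the start. The background share, 29.0%, was 20.9% over protein-coding genes with a mean of at least 10. No paired analysis was possible because the means used hold no value of a single library, and for the same reason no library was left out in turn. Lowly expressed members such as Nek2 and Cks2 carry the largest counting error.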
